A study of Mus musculus with 24 samples.

Results

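The miR-378 family was measured by 5 mature miRNA names, miR-378a-3p, miR-378a-5p, miR-378b, miR-378c and miR-378d, of 1073 names with reads in the series. They are the entries mmu-mir-378a-3p, mmu-mir-378a-5p, mmu-mir-378b, mmu-mir-378c and mmu-mir-378d. The family was selected on 2 values of these same libraries, the high share of A-to-G reads in miR-378a-3p and its higher rank with ultracentrifugation, and all its listed names were then taken. The level of A-to-G reads and the difference between the isolation methods are therefore given as descriptions, without a test.

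The 24 small RNA libraries came from exosome-enriched fractions (EEFs, the small vesicles and particles left after tissue pieces, cells and large debris are removed) of mouse hippocampus. Male C57BL/6 mice (C57BL/6OlaHsd in the study's methods) aged 6 to 9 weeks received 0.3 µg of kainic acid (KA), a glutamate receptor agonist that triggers status epilepticus, or PBS (control) in 0.2 µl into the right basolateral amygdala. All animals carried a cannula and cortical electrodes, and midazolam at 8 mg/kg was given 40 min later to curtail the seizures. Tissue was taken at 24 h or 2 weeks. EEFs were pelleted by ultracentrifugation (UC) or precipitated with an ExoQuick kit, and both were treated with RNase A before RNA extraction. Each of the 8 groups (method, treatment and time) held 3 libraries. A library pooled 5 hippocampi with UC and 4 with the kit, so a value describes a pool and not an animal, and cell source within the hippocampus was not separated.

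A miRNA guides silencing complexes to messenger RNAs, mainly through its seed, bases 2 to 8. The miR-378 family is best known from energy metabolism, muscle and fat. ADAR enzymes convert adenosine to inosine in double-stranded RNA, inosine pairs like guanosine, and sequencing reads it as G, so an A-to-G read at a fixed base of a miRNA is the usual sign of editing. A change outside the seed leaves the seed letters as they are. Mature miRNAs can also gain single U or A bases at the 3′ end, added by terminal nucleotidyl transferases.

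The RefSeq table (GRCm38.p6) held 3 of the 5 names, without miR-378a-3p and miR-378a-5p. These 3 are shown because the base at which most of their internal A-to-G reads were listed lies in a stretch that all 3 share. The first capitals mark the seed and the later single capital marks the A of the listed site.
miR-378b: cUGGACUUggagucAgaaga
miR-378c: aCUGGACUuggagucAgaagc
miR-378d: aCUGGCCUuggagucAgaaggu

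The site is position 15 in miR-378b and position 16 in miR-378c and miR-378d, counted from 1 at the 5′ end, and the change is A15G in the first and A16G in the others. In each of the 3 the A stands between a C and a G. miR-378b begins 1 base later than miR-378c, shares a run of 19 bases with it and differs, in miR-378c numbering, by C21A. miR-378d differs from miR-378c by A6C, inside the seed, and by C21G. No other mouse name in the table has any of the 3 seeds. The table did not hold miR-378a-3p or miR-378a-5p, so their seeds were not compared. miR-378b lies at chr11:88352839-88352858 on the plus strand, within the gene of the RNA-binding protein Msi2 but on the opposite strand and in no exon of it. miR-378c lies at chr14:46954905-46954925 on the minus strand, within Samd4 on the opposite strand and in no exon of it. miR-378d lies at chr10:126710355-126710376 on the minus strand and overlaps no other annotated gene. Bases 2 to 20 of miR-378c written with G at position 16 occurred on either strand in 0 of 2743 entries of the RefSeq miRNA table and in 0 of 141767 GENCODE transcripts.

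miRNA reads per library ranged from 85436 to 169639 with UC and from 154884 to 676726 with the kit, so that 1 read was worth 5.89 to 11.7 CPM (the count of a name scaled by the library total) with UC and 1.48 to 6.46 CPM with the kit. The markers fixed for neurons (miR-124-3p, miR-9-5p and miR-128-3p) had reads throughout, with a summed level of 27404 to 39339 CPM in UC libraries and 39590 to 75172 CPM in kit libraries. The muscle markers miR-1a-3p and miR-206-3p were not among the names listed with reads. The summed level of the 3 muscle markers thus came from the 1 that was listed, and stayed at or below 21.4 CPM. One kit library, KA at 2 weeks replicate 2, held 4798 of the miR-378a-3p reads and stood apart from its group, so the main values that rest on it are also given without it.

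miR-378a-3p made up nearly the whole family. It had 33223 reads, 94.3% of the 35240 family reads, and was present in 24 of 24 libraries. miR-378c had 1967 reads (5.58%) and was also present in 24 libraries. miR-378d had 26 reads in 17 libraries and miR-378b had 18 in 12 libraries. miR-378a-5p, the opposite arm of the miR-378a hairpin, had 6 reads in 4 libraries, 1 with UC and 5 with the kit, all 4 libraries being from KA-treated mice. How often other names with so few reads were seen only after KA was not counted. miR-378d, miR-378b and miR-378a-5p never passed 3 reads in a library, which is the count that a value of 0 still allows, so no fold change is given for them.

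With UC, miR-378a-3p stood at 10747 ± 2496 CPM (SD, n = 12 libraries), and the libraries ran from 6234 through a median of 10920 to 15250. With the kit it stood at 4040 ± 1084 CPM (SD, n = 12), from 2796 through a median of 3813 to 7090. Only the kit library named above, at 7090 CPM, was higher than the lowest UC library, and without it the kit mean was 3763 ± 528 CPM (SD, n = 11) and the ranges no longer met. By mean CPM, miR-378a-3p ranked 15 of all names with UC (11 to 21 in single libraries) and 31 with the kit (25 to 42).

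miR-378c followed the same order at a lower level. UC libraries gave 605 ± 205 CPM (SD, n = 12; lowest 327, median 591, highest 1025). Kit libraries gave 247 ± 85.5 CPM (SD, n = 12; lowest 148, median 237, highest 421). The ranges overlapped. The reads of miR-378c came to 5.55% ± 0.842 of those of miR-378a-3p in UC libraries (SD, n = 12; 4.10% to 7.04%) and to 6.16% ± 1.62 in kit libraries (SD, n = 12; 3.64% to 9.32%), and these ranges overlapped as well. The names share most of their letters, and how the counting divided reads that fit both is not given in the sources used here.

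**Figure D1:**
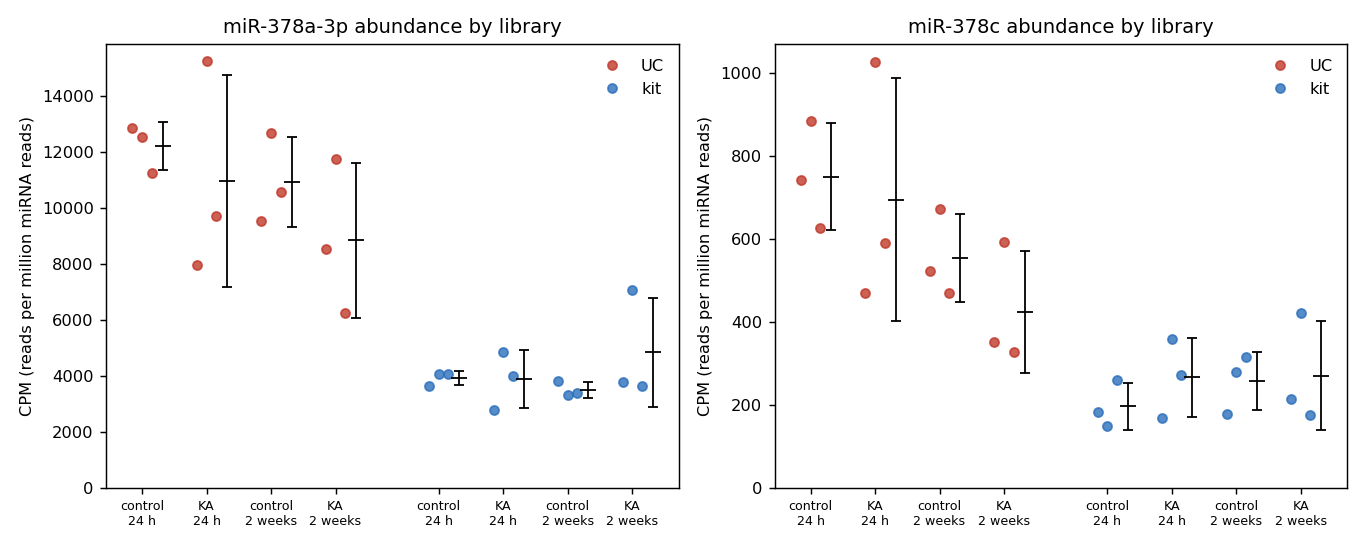
Abundance of miR-378a-3p (left) and miR-378c (right) in CPM, with each point a library, the black bar the group mean and the whiskers 1 SD (n = 3). UC libraries (red) ran from 6234 to 15250 CPM for miR-378a-3p and kit libraries (blue) from 2796 to 7090, and control and KA libraries overlapped with either method.

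Fitted over the 397 names measured with both methods, kit minus UC came to -1.45 (SE 0.16) for miR-378a-3p and -1.29 (SE 0.21) for miR-378c on the log2 scale, against a median of -0.013 over all names. Without kit KA replicate 2 of 2 weeks the values were -1.62 (SE 0.15) and -1.47 (SE 0.20). Many names lay further toward UC, 60 in the case of miR-378a-3p and 67 in that of miR-378c. Across all names 33.5% were higher with UC at an adjusted p under 0.05, and 5.04% had a UC range wholly above the kit range, which neither miR-378a-3p nor miR-378c had. Levels of the oligodendrocyte markers miR-219a-2-3p and miR-338-3p moved the same way, with a sum of 5942 to 10689 CPM in UC libraries and 1629 to 2154 CPM in kit libraries. The endothelial markers miR-126a-3p and miR-126a-5p went the other way, with 218 to 609 CPM with UC and 2101 to 3242 CPM with the kit. So did the neuron markers, with 27404 to 39339 CPM with UC and 39590 to 75172 CPM with the kit. The erythrocyte markers miR-451a and miR-144-3p had a median sum of 0 CPM with UC (up to 11.3) and 49.5 CPM with the kit (0 to 184). The leukocyte markers miR-223-3p and miR-142a-3p had 11.7 CPM with UC (0 to 37.6) and 17.6 CPM with the kit (3.86 to 68.9). Both had higher medians with the kit and overlapping ranges. The part of these cell types, of library depth and of the pool size in the miR-378 values was not tested, and method, pool size and depth cannot be told apart in this design.

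Whether status epilepticus altered the family in EEFs was asked within each method. With UC at 24 h, miR-378a-3p had 12874, 12540 and 11270 CPM in controls and 7977, 15250 and 9703 CPM after KA. The KA libraries spanned the controls from both sides. The log2 difference of KA minus control was -0.22 (SE 0.27, adjusted p = 1.00 by edgeR's quasi-likelihood test). At 2 weeks the controls had 9548, 12692 and 10569 CPM and the KA libraries 8544, 11760 and 6234 CPM. Here too the groups overlapped, with a log2 difference of -0.26 (SE 0.27, edgeR adjusted p = 0.841).

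With the kit at 24 h, miR-378a-3p had 3643, 4080 and 4080 CPM in controls and 2796, 4866 and 3980 CPM after KA, a log2 difference of 0.11 (SE 0.32, edgeR adjusted p = 0.952). At 2 weeks the controls had 3830, 3317 and 3374 CPM, and the KA libraries had 3797, 7090 and 3631 CPM. The log2 difference was 0.50 (SE 0.32, edgeR adjusted p = 0.998), and it was 0.08 (SE 0.28) without the library at 7090 CPM. The difference in the means at 2 weeks thus rested on a single pool.

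For miR-378c the log2 differences of KA minus control were -0.17 (SE 0.34) at 24 h and -0.35 (SE 0.34) at 2 weeks with UC, and 0.56 (SE 0.42) and 0.15 (SE 0.41) with the kit. The kit controls at 24 h had 183, 148 and 259 CPM and the KA libraries 168, 360 and 271 CPM, which overlapped. The edgeR adjusted p-values were 1.00 and 0.806 with UC and 0.881 and 0.998 with the kit. The kit difference at 2 weeks turned to -0.39 (SE 0.41) without KA replicate 2. Neither miR-378a-3p nor miR-378c passed an adjusted p of 0.05 in any KA comparison, where the share of all tested names that did was 0.476% at 24 h and 0.952% at 2 weeks with UC and 0% at both times with the kit. At an unadjusted p under 0.05 the shares over all names were 2.86%, 7.86%, 4.62% and 2.69%, and neither name was among them. The CPM ranges of KA and control libraries overlapped for both names in all 4 comparisons, while among all names they did not overlap for 9.76% and 10.2% with UC and for 9.04% and 4.81% with the kit. limma-voom and DESeq2 called neither name.

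miR-378d had 2, 2 and 2 reads in the UC controls at 24 h and 0, 0 and 0 after KA, so the groups did not overlap, as was the case for 9.76% of all names in that comparison. Its edgeR p was 0.0147, adjusted 0.881, and all 6 values were at or below 3 reads. At 2 weeks the reads were 3, 1 and 1 in UC controls and 0, 1 and 1 after KA. With the kit they were 1, 2 and 1 in controls at 24 h against 0, 1 and 1, and 0, 2 and 1 at 2 weeks against 0, 3 and 1. At this depth no difference in miR-378d or miR-378b could be measured.

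Between 24 h and 2 weeks, with KA and control weighted equally, miR-378a-3p differed by -0.20 (SE 0.19, edgeR adjusted p = 0.790) on the log2 scale with UC and by 0.20 (SE 0.22, edgeR adjusted p = 0.915) with the kit. The kit value was -0.02 (SE 0.19) without KA replicate 2 of 2 weeks. miR-378c was at 741, 883 and 626 CPM in UC controls at 24 h and 522, 672 and 468 CPM at 2 weeks. Its log2 difference over both treatments was -0.53 (SE 0.24, edgeR adjusted p = 0.398). Its unadjusted p was under 0.05, as it was for 11.2% of all names. With the kit the difference was 0.33 (SE 0.29, edgeR adjusted p = 0.883), or 0.05 (SE 0.27) without KA replicate 2 of 2 weeks, and there 5.19% of all names had an unadjusted p under 0.05. At the adjusted threshold the share of all names was 0.476% with UC and 0% with the kit, and the family had none.

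The KA effect at 2 weeks minus that at 24 h was -0.04 (SE 0.39) with UC and 0.39 (SE 0.45) with the kit for miR-378a-3p, and -0.18 (SE 0.48) and -0.41 (SE 0.59) for miR-378c. All 4 edgeR adjusted p-values lay between 0.986 and 0.991. Without kit KA replicate 2 of 2 weeks the kit values were 0.0044 (SE 0.38) for miR-378a-3p and -0.90 (SE 0.54, edgeR adjusted p = 0.940) for miR-378c. Among all names 0.476% passed with UC and 0% with the kit, and 6.9% and 3.27% had an unadjusted p under 0.05, which neither name had.

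Reads of miR-378a-3p carried G at position 16 in 17558 of 33223 cases (52.8%). These were 46.3% of the 37920 reads of the series with A-to-G listed as an internal change, more than at any other internal position. A-to-G changes listed at read ends were not part of this total. Of 258 listed positions in names with a mean of 100 reads or more per library, it had the second highest mean level, after position 7 of miR-3099-3p. This read minimum left out position 6 of miR-376b-3p, whose mean level was higher, at 78.5% with UC and 78.2% with the kit. Other positions of miR-378a-3p were rarely changed, with 90 reads at position 6 (0.271%, in the seed), 60 at position 12 (0.181%) and 6 at position 18 (0.0181%). No row of another internal base change was listed for it.

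With UC the share of reads with G at position 16 was 61.8% ± 4.47 (SD, n = 12), from 54.5% through a median of 61.5% to 70.1%. With the kit it was 45.5% ± 5.90 (SD, n = 12), from 32.6% through a median of 46.6% to 57.8%. The means differed by 16.3 percentage points. G was the more common base in all 12 UC libraries. Of the 12 kit libraries only 1 had more reads with G than without, KA at 24 h replicate 3 at 57.8%, which was above 2 UC libraries. Without KA replicate 2 of 2 weeks the kit mean was 46.7% ± 4.47 (SD, n = 11). Over summed reads the level was 62.7% with UC (95% Wilson interval 62.0% to 63.4%) and 42.9% with the kit (42.2% to 43.7%), intervals that cover counting error only. The summed kit level was 47.2% without KA replicate 2 of 2 weeks. Within groups the pooled SD was 5.11 points for UC and 5.64 for the kit, against 1.37 and 1.52 points that counting independent reads would give.

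In UC libraries the level was 59.1%, 63.6% and 64.3% in controls at 24 h and 62.3%, 65.3% and 60.7% after KA. At 2 weeks it was 56.6%, 70.1% and 59.0% in controls and 54.5%, 66.9% and 59.4% after KA. The KA and control values overlapped at both times. Averaged over the times, KA minus control was -0.58 points (SE 2.95), with p = 0.805 in a two-sided exact permutation test within times and 0.972 after Benjamini-Hochberg adjustment over 18 tests of levels and read ends.

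In kit libraries the level was 46.2%, 40.7% and 45.0% in controls at 24 h and 42.2%, 48.8% and 57.8% after KA. At 2 weeks it was 48.1%, 47.0% and 47.3% in controls and 47.0%, 32.6% and 43.5% after KA. The KA libraries were more spread than the controls at both times, with SDs of 7.84 and 7.55 points against 2.91 and 0.560. KA minus control was 5.65 points at 24 h and -6.43 points at 2 weeks, and the exact permutation p-values were 0.4 and 0.2, where 0.1 is the smallest that 3 against 3 libraries can give. The 2-week difference was -2.19 points without KA replicate 2. Over both times the kit difference was -0.39 points (SE 3.26; exact permutation p = 0.895, adjusted 0.972), and it was 1.73 points without KA replicate 2 of 2 weeks.

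From 24 h to 2 weeks the level differed by -1.44 points with UC (SE 2.95; exact permutation p = 0.595) and by -2.53 points with the kit (SE 3.26; exact permutation p = 0.55), both adjusted to 0.972. Over all 24 libraries KA minus control was -0.48 points (SE 2.20; permutation p = 0.828) and 2 weeks minus 24 h was -1.99 points (SE 2.20; permutation p = 0.399). Given these errors, shifts of a few points were not detectable. Deviations of same-numbered KA and control libraries were weakly correlated across miRNAs at 2 weeks, though the labels state no pairing. Read as pairs, they differed in level by -2.08, -3.14 and 0.403 points with UC and by -1.08, -14.5 and -3.75 points with the kit. Over the 6 pairs the mean was -4.02 points (SE 2.17), with p = 0.0625 in an exact permutation of signs and 0.281 after adjustment over 9 such tests.

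**Figure D2:**
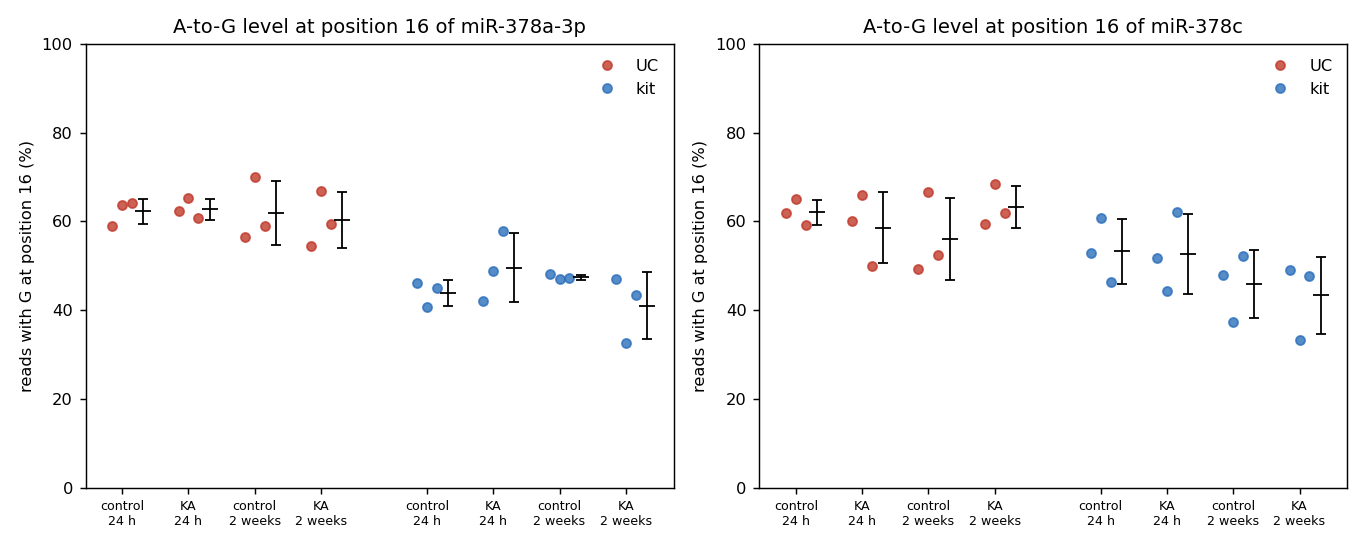
Percent of reads with G at position 16 of miR-378a-3p (left) and miR-378c (right), with each point a library, the black bar the group mean and the whiskers 1 SD (n = 3). UC libraries of miR-378a-3p lay between 54.5% and 70.1% and kit libraries between 32.6% and 57.8%, and KA libraries overlapped controls in all 4 pairs of groups.

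The level and the abundance together give the amount of each form. Reads with G stood at 6702 ± 1865 CPM with UC (SD, n = 12; 3705 to 9963) and 1809 ± 358 CPM with the kit (SD, n = 12; 1180 to 2375), so the ranges did not overlap and the mean was 3.71-fold higher with UC. Reads without G stood at 4045 ± 794 CPM with UC (SD, n = 12; 2529 to 5288) and 2232 ± 849 CPM with the kit (SD, n = 12; 1616 to 4782), a 1.81-fold difference with overlapping ranges. Both forms were thus more abundant in UC libraries, the form with G more so.

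The kit library of KA at 2 weeks replicate 2 had 2308 CPM with G, within the range of the other kit libraries, and 4782 CPM without G, the highest of the kit. Its level was the lowest of all, 32.6% (95% Wilson interval 31.2% to 33.9%). Its high miR-378a-3p total lay in the form without G. Without this library the kit range of the form without G ended at 2491 CPM, below the lowest UC library.

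**Figure D3:**
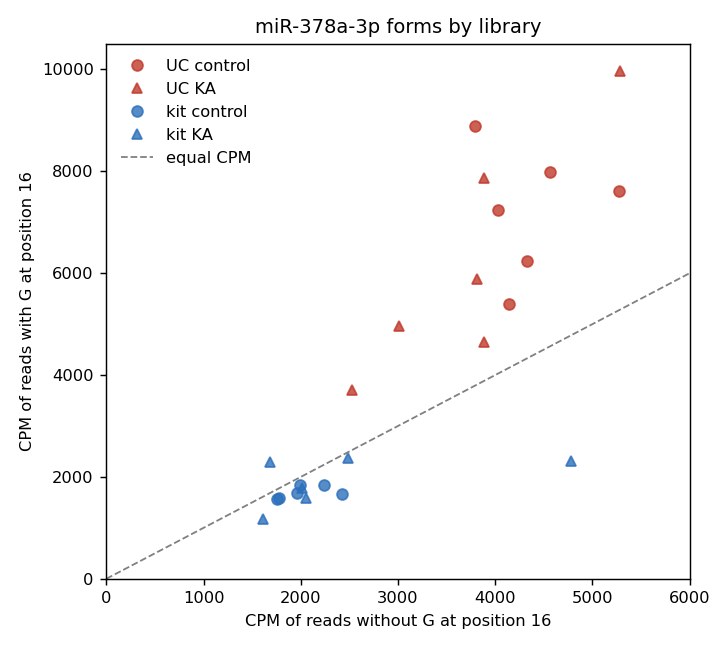
CPM of miR-378a-3p reads with G at position 16 (vertical axis) against CPM of reads without it (horizontal axis), with each point a library and the dashed line marking equal CPM. All 12 UC libraries lay above the line and 11 of 12 kit libraries below it, and the kit KA library at 4782 CPM without G stood to the right of the others.

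miR-378c carried G at the same listed position, 16, at much the same level as miR-378a-3p. Whether this is the same base in both names was not checked, since the RefSeq table lacked miR-378a-3p. The share at position 16 of miR-378c was 60.0% ± 6.45 with UC (SD, n = 12; 49.2% to 68.5%) and 48.8% ± 8.32 with the kit (SD, n = 12; 33.3% to 62.2%). Single libraries held 23 to 285 reads of miR-378c, and over summed reads the levels were 61.6% with UC (95% Wilson interval 58.5% to 64.7%) and 44.2% with the kit (41.2% to 47.2%), or 48.3% without KA replicate 2 of 2 weeks. The lowest kit library was again KA at 2 weeks replicate 2, at 33.3%, and the highest was again KA at 24 h replicate 3, at 62.2%. A further 157 reads of miR-378c had their G at position 16 listed as the start of a changed 3′ end. With these added, a count chosen after the data were seen, the levels were 70.7% and 51.2%. For miR-378a-3p only 5 reads had such a G at the same listed place from the 3′ end, and the level stayed at 62.7% and 42.9%. That this place is position 16 of miR-378a-3p was not checked, since its sequence was not available. Since reads that fit both names may have been divided between them, the levels of miR-378a-3p and miR-378c are not independent of each other.

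miR-378b carried G at position 15 in 10 of 18 reads and miR-378d at position 16 in 5 of 26 reads (95% Wilson intervals 33.7% to 75.4% and 8.51% to 37.9%). In miR-378d, 9 of 26 reads were listed with another base change at position 6, the base at which it differs from miR-378c. miR-378a-5p had no changed read among its 6.

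The other named sites of A-to-G reads had the following levels. Position 7 of miR-3099-3p stood at 90.8% ± 2.75 in UC libraries and 83.9% ± 3.20 in kit libraries (SD, n = 12 each). Position 6 of miR-376b-3p stood at 78.5% ± 12.1 and 78.2% ± 5.32. Position 5 of miR-411-5p stood at 21.2% ± 3.39 and 17.8% ± 3.47. Of the sparsely changed sites, miR-421-3p had means of 4.37% ± 5.83 with UC and 8.65% ± 3.22 with the kit. The means of miR-381-3p were 1.96% ± 1.96 and 2.23% ± 0.751, and the ranges of both sites overlapped. Over summed reads miR-421-3p stood at 3.98% with UC and 9.43% with the kit, while miR-381-3p turned, at 2.5% and 2.16%. With UC the sums held 7 reads with G of 176 for miR-421-3p and 11 of 440 for miR-381-3p. These values are a description, and the difference between sites was not tested.

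The 3′ ends of miR-378a-3p also varied. In the position scale of the files, 0 is the last annotated base, so a U at 2 is a U listed 2 bases past the end. Of all its reads, 76.4% had no changed end, 15.3% had a single U at 2, 3.36% a single A at 1, 1.25% a single U at 1 and 1.24% a single A at 2. Reads with a changed 3′ end made up 19.2% ± 2.92 with UC (SD, n = 12; 16.9% to 27.6%) and 26.4% ± 1.75 with the kit (SD, n = 12; 23.0% to 29.3%). A single added U was found in 13.9% ± 2.63 of UC reads and 18.8% ± 1.91 of kit reads (SD, n = 12 each). A single A was found in 4.05% ± 0.375 and 5.72% ± 1.24. By the share of single U, miR-378a-3p ranked 13 of 82 names with at least 1000 reads with UC, whose median was 2.52%, and 11 of 129 with the kit, whose median was 1.96%. In miR-378c a single U at any listed 3′ position was found in 3.78% ± 2.07 and 3.32% ± 2.40 of reads (SD, n = 12 each). None was listed at 1 or 2, and 72 reads had it at 0, in place of the last annotated base. The shares of the 2 names are therefore not of the same change.

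A changed 5′ end was rare, at 0.947% ± 0.280 of miR-378a-3p reads in UC libraries and 1.04% ± 0.375 in kit libraries (SD, n = 12 each). Its most frequent form was G in place of the first base, with 220 reads (0.662%). Reads that began earlier or later with bases of the hairpin would not be listed as changed, so start positions were not measured.

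KA minus control in the share of changed 3′ ends was 1.79 points with UC (SE 1.67; exact permutation p = 0.375) and -0.16 points with the kit (SE 0.75; exact permutation p = 0.865). At 2 weeks with the kit, controls had 25.5% to 25.8% and KA libraries 27.3% to 29.3%, which did not overlap, with an exact permutation p of 0.1, the smallest possible. KA libraries lay wholly above controls in this share for 2.71% of the 221 names with at least 10 reads in each of the 6 libraries. At 24 h the kit means were 27.2% ± 1.80 in controls and 24.6% ± 1.43 after KA (SD, n = 3 each), in the other direction and with overlap. With UC the 2-week means were 21.8% ± 5.07 after KA and 18.3% ± 1.10 in controls (SD, n = 3 each). In the pairs of same-numbered libraries at 2 weeks, KA minus control was 1.28, 1.13 and 8.13 points with UC and 1.52, 1.51 and 3.78 points with the kit, higher after KA in 6 of 6 pairs. Their mean was 2.89 points (SE 1.12), with p = 0.0312 in an exact permutation of signs, the smallest that 6 pairs can give, and 0.281 after adjustment over the 9 paired tests, a comparison added after the data were seen. How many of all names were higher in every pair was not counted. At 24 h the controls had 19.4%, 18.5% and 16.9% with UC and 27.0%, 29.1% and 25.5% with the kit. The same-numbered KA libraries had 17.2%, 17.0% and 20.9% with UC and 25.6%, 25.2% and 23.0% with the kit. At that time KA was lower in each pair except UC replicate 3. For changed 5′ ends KA minus control was 0.068 points with UC (SE 0.17) and -0.078 points with the kit (SE 0.25). After adjustment over the 18 unpaired tests, all p-values for ends, KA and time alike, were 0.972.

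The 3′ ends differed between the forms with and without G at position 16, a split made after the data were seen and given without a test. Over all reads of miR-378a-3p, 2802 of 17558 with G had a changed 3′ end (15.96%) and 4704 of 15665 without it (30.0%). The share was lower with G in 24 of 24 libraries, where the form with G minus the form without it ran from -19.9 to -7.87 points, with a median of -13.2. With UC the medians over libraries were 14.2% with G and 25.8% without, and with the kit 18.6% and 33.6%.

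The gap lay in the additions at position 2. A single U at 2 was found in 10.2% of reads with G and 21.0% of those without, and a single A at 2 in 0.159% and 2.45%, each lower with G in 24 of 24 libraries. A single A at 1 was found in 3.67% and 3.01%, and was lower with G in 7 of 24 libraries. A single U at 1 was found in 1.11% and 1.40%, and was lower with G in 19 of 24 libraries. The additions thus did not all move together with the base at position 16.

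In miR-378c the comparison turned on how reads were listed. Of its reads with an internal G at position 16, 6.88% had a changed 3′ end, against 31.9% of the rest. With the 157 reads whose G was listed as a changed end counted as reads with G, the shares were 19.2% and 18.1%. For miR-378a-3p the same step moved the share with G to 15.98% and left that without it at 30.0%. Over the reads of both methods together, the shares of the forms lay closer together at the other named sites. In miR-3099-3p changed 3′ ends made up 61.4% of reads with G and 56.6% of those without, in miR-376b-3p 62.3% and 65.5%, and in miR-411-5p 0.800% and 0.848%. In miR-421-3p they made up 38.8% and 34.2% and in miR-381-3p 2.00% and 2.65%, with 147 and 150 reads with G. By method, the shares with and without G in miR-3099-3p were 57.3% and 48.0% with UC and 63.3% and 58.8% with the kit. Those of miR-378a-3p were 14.3% and 26.3% with UC and 18.3% and 32.5% with the kit. The reads were aligned and their ends assigned by the study's software, and the part of that step in the gap was not tested.

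**Figure D4:**
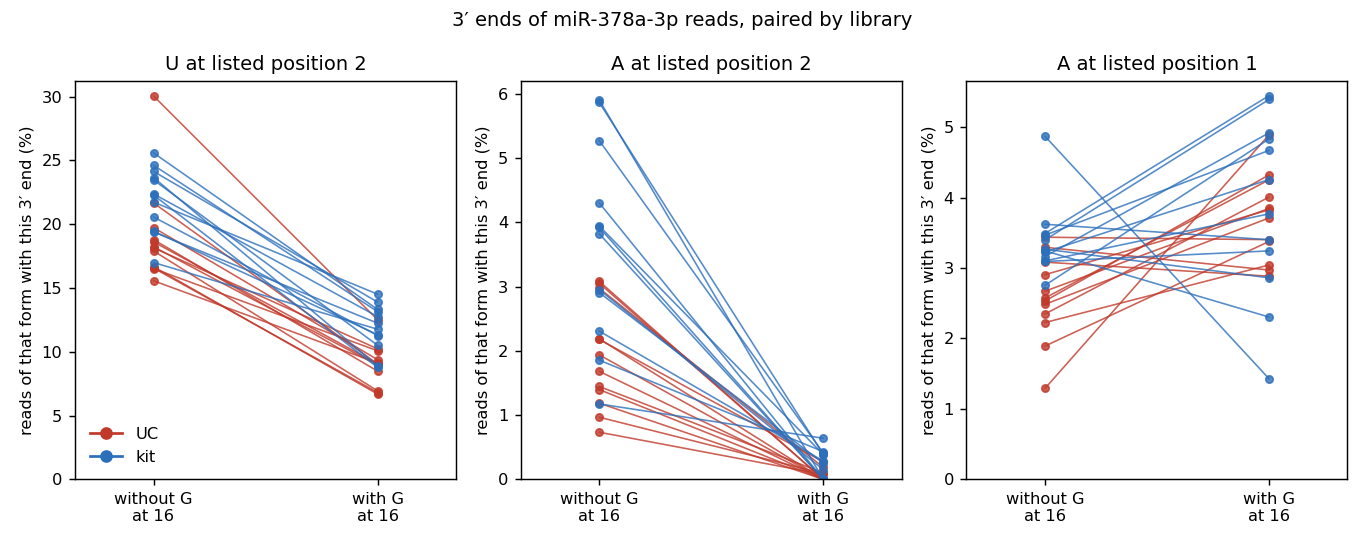
Percent of miR-378a-3p reads with a single U at listed position 2 (left), a single A at 2 (middle) and a single A at 1 (right) at the 3′ end, for reads without and with G at position 16, with a line for each library (UC red, kit blue). The first 2 shares were lower with G in 24 of 24 libraries and the third in 7 of 24.

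Across the 12 libraries of each method, the abundance of miR-378a-3p followed most closely that of miR-320-3p (mean of the within-method Spearman coefficients 0.64, with 0.76 for UC and 0.52 for the kit), miR-127-5p (0.63, with 0.60 and 0.66) and miR-378c (0.62, with 0.92 and 0.32), among 145 names with at least 10 reads in every library. The coefficients are descriptions, the points share libraries and their depth, and reads of miR-378c may have been divided with miR-378a-3p.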

How the data were processed

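Per the study's methods and the labels, the authors sequenced small RNA libraries (TruSeq, MiSeq) and mapped reads to miRBase release 21 hairpins with Chimira. The deposited files hold raw counts per miRNA, and counts per miRNA split by end change and internal change. The treatment of reads that fit several names is not given in the sources used here. Read names, groups and replicate numbers came from the labels, which do not say that replicates came from separate experiments, so p-values measure the spread between these pools. The members and lists were chosen with earlier results of these data known.

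Abundance was fitted on all names with CPM above 1 in at least 6 libraries, for each method apart, with edgeR 4.0.16 (TMM, quasi-likelihood test, Benjamini-Hochberg adjustment) in R 4.3.3. miR-378a-3p, miR-378c and miR-378d passed this filter with either method and miR-378b with UC. The named miRNAs were the 5 members, the study's editing sites and the 3 names most like miR-378a-3p in level. The A-to-G level is the share of a name's reads listed with A-to-G at a position, leaving out rows marked as doubled (78 reads of the family). Listed internal positions were counted from 1. This was checked for names with a sequence in the RefSeq table, where all 18396 internal A-to-G reads fell on an A. The table lacked miR-378a-3p, so its listed site was not checked, and the same counting was assumed for it. Levels and read ends were compared by two-sided exact permutation within strata of time (and method). Scripts were tested on simulated data.

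Alternatives were RLE factors, library size only, no filter, a filter of 10 reads, limma-voom 3.58.1, DESeq2 1.42.0, other denominators, the replicate block and leaving out libraries. Deviations of same-numbered KA and control libraries were weakly correlated at 2 weeks (0.111 to 0.310), against -0.246 to 0.112 at 24 h, and these ranges meet. Unlike-numbered libraries were not compared, and the labels state no pairing. The numbers were read as pairs at 2 weeks on this ground alone, and paired values were added there. The main tests were unpaired, and the block over both times was an alternative. Python 3.11.15 was used for the rest.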

Additional observations from a re-analysis of the deposited data

How the results depend on the processing

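Of 340 repeats of tested results under other settings, 308 kept the direction and the side of the threshold, 32 changed sign, and none passed an adjusted p of 0.05. The 22 repeats of kit minus UC, which carry no test, kept their direction. The adjusted p ran from 0.275 to 1 for abundance (7 of 172 repeats had an unadjusted p under 0.05) and from 0.818 to 1 for A-to-G levels and read ends. Kit minus UC stayed between -1.62 and -1.40 on the log2 scale for miR-378a-3p and between -1.48 and -1.25 for miR-378c. The cause of the sign changes was not tested.

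For miR-378a-3p with the kit at 24 h, KA minus control was -0.0090 with RLE factors, -0.0195 with library size only and -0.0089 with DESeq2. For the KA effect at 2 weeks minus that at 24 h with UC, miR-378a-3p stood at 0.017 with limma-voom and at 0.035 with the replicate block. The replicate block, which pairs same-numbered libraries, changed no call, and with the 2-week libraries alone it gave -0.26 with UC and 0.45 with the kit for miR-378a-3p. Kit KA minus control in changed 3′ ends was 0.116 points with the 3′ arm names of the family summed. The time difference in changed 5′ ends over all libraries was -0.00052 points with summed reads.

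When libraries were left out, KA minus control at 24 h ran from -0.48 to 0.018 for miR-378c with UC and from -0.055 to 0.21 for miR-378a-3p with the kit, and at 2 weeks from -0.39 to 0.47 for miR-378c with the kit. The KA effect at 2 weeks minus that at 24 h with UC ran from -0.23 to 0.33 for miR-378a-3p and from -0.24 to 0.16 for miR-378c, and the time difference of miR-378a-3p with the kit from -0.018 to 0.32. In points of A-to-G level, KA minus control ran from -2.84 to 1.73 with the kit and from -1.46 to 0.576 over all libraries, and the time difference with UC from -4.19 to 0.399. In points of changed 3′ ends, KA minus control ran from -0.337 to 2.91 with UC, from -0.542 to 0.356 with the kit and from -0.439 to 1.58 over all, and the time difference with the kit from -0.220 to 1.70. In points of changed 5′ ends, KA minus control ran from -0.047 to 0.204 with UC, from -0.255 to 0.153 with the kit and from -0.151 to 0.179 over all, and the time difference from -0.336 to 0.297 with the kit and from -0.062 to 0.174 over all.

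The groups of 3 libraries cannot give an exact p below 0.1 at a single time. Pairing at 2 weeks alone, splitting read ends by form, adding G reads listed as end changes and leaving out kit KA at 2 weeks replicate 2 were chosen after the data were seen. Depth leaves miR-378b, miR-378d and miR-378a-5p at or below 3 reads a library, so that changes in them could not be seen.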

Other observations

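The level of G at position 16 of miR-378a-3p differed among UC libraries by their replicate number. The 4 libraries numbered 2 lay between 63.6% and 70.1%, the 4 numbered 1 between 54.5% and 62.3% and the 4 numbered 3 between 59.0% and 64.3%. Those numbered 2 were above all of those numbered 1. In kit libraries the ranges overlapped, with 42.2% to 48.1% for number 1, 32.6% to 48.8% for number 2 and 43.5% to 57.8% for number 3. The labels do not say what the numbers share.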
